A study of Mus musculus with 4 samples.

Results

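The genes described here are 9 genes of retinoic acid synthesis and response, chosen by name: Aldh1a1, Aldh1a2, Aldh1a3, Cyp26b1, Crabp1, Crabp2, Rara, Rarb and Rxra. They are 9 of 22414 genes listed in either of the 2 deposited tables. Of the 9, 7 were listed in both tables, and these 7 also passed the filter on low counts and were tested among 15933 genes. Aldh1a1 was analysed here in pair 2 only and Aldh1a2 in pair 1 only.

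The libraries were made from poly(A)-selected RNA of mouse brain at embryonic day 13, on a C57BL/6 background. The controls carried floxed Wt1 alleles and were also labelled WT (Wt1fl/fl, called Wt1_flfl), and the other group was labelled Wt1CKO (called Wt1_CKO), a conditional knockout of the same transcription factor gene. Each group had 2 samples, numbered 1 and 2, and each deposited table held the Wt1_flfl and the Wt1_CKO library of 1 number, called pair 1 and pair 2 below. The labels give neither the Cre driver, nor the brain region, nor whether a sample was 1 embryo or a pool, so p-values reflect no more than the spread among these libraries, which may be technical. The title of the study places Wt1 in the growth and maturation of neural progenitors. Wt1 itself is not analysed here, and the genotype labels were not checked against it.

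Retinoic acid is made from vitamin A in steps. Retinol dehydrogenases produce retinaldehyde, and the retinaldehyde dehydrogenases Aldh1a1, Aldh1a2 and Aldh1a3 oxidise it to retinoic acid. Cyp26 enzymes, such as Cyp26b1, break retinoic acid down, and the small cytoplasmic proteins Crabp1 and Crabp2 bind it in the cell. In the nucleus it binds retinoic acid receptors such as Rara and Rarb, which pair with retinoid X receptors such as Rxra on DNA. In the embryonic head the meninges, the eye and the lateral ganglionic eminence are known sources of retinoic acid, through Aldh1a2, Aldh1a1 and Aldh1a3.

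Receptor pairs of this kind bind direct repeats of a 6-base motif, and a repeat with a spacer of 5 bases is the classical retinoic acid response element. Rarb is known for such an element in its own promoter, so that retinoic acid raises the level of 1 of its own receptors. Promoter windows of RefSeq genes (GRCm38.p6, 250 bases before to 50 bases after each start) were available for 7 of the 9 genes, and not for Aldh1a3 and Crabp2. They were searched on both strands for the motif AGGTCA and for its variants AGTTCA as well as GGGTCA and also GGTTCA, with any of these 4 followed by any of them after 5 bases. Among these 7 genes only Rarb held such a repeat. Among all 32851 windows, 32 (0.0974%) held it, in 31 of 27025 genes, and one of these was Cyp26a1, the paralogue of Cyp26b1. A repeat with a spacer of 1 or 2 bases was held by 0.222% and 0.268% of all windows, and which genes held it is not given here. A match is only a description of the letters. The Rarb window is printed because it carries the element for which Rarb is known (chr14:16575427-16575726, minus strand, GRCm38.p6, read 5′ to 3′ on the gene's strand, with the repeated motifs in capitals). The repeat lies from 53 to 37 bases before the start of transcription.

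Rarb promoter window: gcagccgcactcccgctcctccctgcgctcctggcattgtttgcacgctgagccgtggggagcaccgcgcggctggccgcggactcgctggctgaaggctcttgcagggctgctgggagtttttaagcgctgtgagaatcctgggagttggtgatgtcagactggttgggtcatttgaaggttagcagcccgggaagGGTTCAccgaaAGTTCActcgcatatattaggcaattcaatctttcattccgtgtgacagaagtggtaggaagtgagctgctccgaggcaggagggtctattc

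The repeats of the 2 retinoid genes can be set side by side, each read in the direction of its motifs. In Cyp26a1 the repeat lies on the strand opposite to the gene, from 32 to 16 bases before the start (window chr19:37697558-37697857, plus strand, GRCm38.p6).
Rarb element: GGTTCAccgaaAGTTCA
Cyp26a1 element: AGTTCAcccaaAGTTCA

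The libraries held 16219310 to 17704698 counts each. Wt1_flfl replicate 1 stood apart in ribosomal RNA, with 4582 CPM (each gene's count over the library's listed total, scaled to 1000000 counts) against 184 to 451 CPM in the other 3 libraries. Wt1_CKO replicate 1 stood apart in Xist, the X-inactivation RNA of females, with 4 counts against 13086 to 16472 in the others. Neural markers were abundant in every library, as for the neuronal tubulin gene Tubb3 (1994 to 2355 CPM) and Dcx, a microtubule protein of young neurons (811 to 936 CPM). Of the 9 positions in the deposited tables, 8 equal those of GENCODE vM21 on GRCm38.

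The 9 genes differed widely in level. Levels of different genes are compared here only as RPKM, the CPM of listed counts per 1000 bases of exon in GENCODE vM21. The binding proteins were highest, with Crabp2 at 17.6, 30.3, 11.2 and 32.5 RPKM in Wt1_flfl replicate 1, Wt1_flfl replicate 2, Wt1_CKO replicate 1 and Wt1_CKO replicate 2, the order used throughout. Crabp1 had 26.6, 15.98, 17.2 and 18.7 RPKM. Crabp2 was above Crabp1 in 2 of the 4 libraries, both of them in pair 2, so their order was not fixed.

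The retinoid X receptor gene Rxra came next, with 6.77, 9.08, 6.47 and 9.67 RPKM. The retinoic acid receptor gene Rara had 5.88, 6.72, 5.77 and 6.52 RPKM. Rxra was above Rara in 4 of 4 libraries, by 1.12 to 1.48 times, although their ranges over the libraries overlapped. Below them, Cyp26b1 ranged from 1.29 to 1.98 RPKM and Aldh1a3 from 0.820 to 1.97 RPKM. Their order differed by pair, with Cyp26b1 higher in both libraries of pair 1 and Aldh1a3 higher in both libraries of pair 2.

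Rarb was the lowest of the 7 genes, at 0.515, 0.321, 0.451 and 0.244 RPKM. Aldh1a3 was 1.82 to 8.09 times higher in the same library. Rarb is uncertain in level, because 1793 bases of its 5265 exonic bases overlap exons of Top2b, a gene on the opposite strand with 8692 to 10424 counts, and no source used here says whether strand was kept. Aldh1a2 (0.0272 and 0.1497 RPKM in pair 1) and Aldh1a1 (0.0944 and 0.0236 RPKM in pair 2) were close to the limit of detection.

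**Figure D1:**
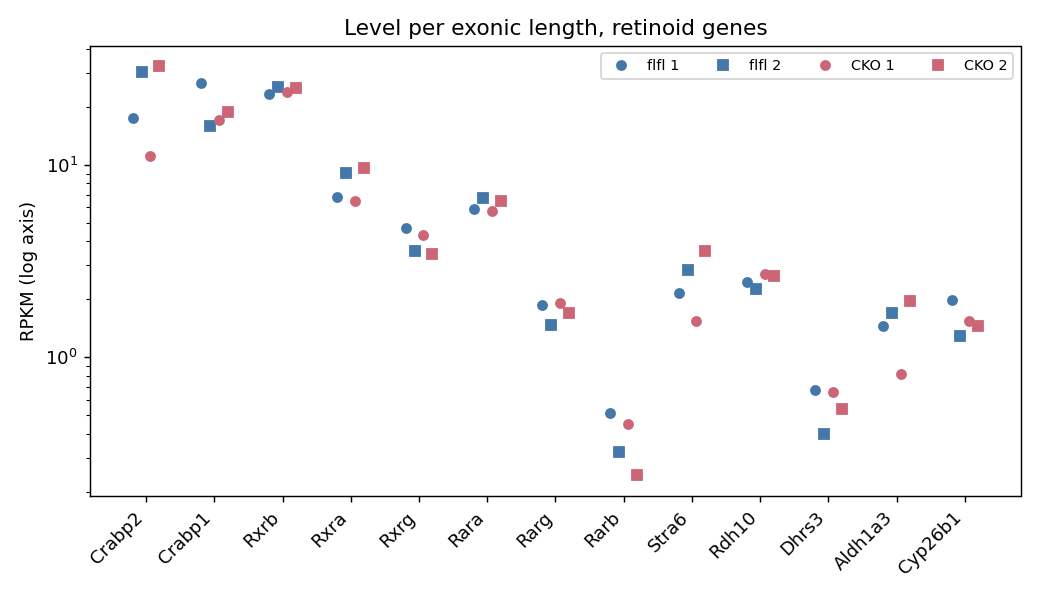
RPKM on a log axis of 7 of the 9 genes and of 6 other retinoid genes in each library. Circles are replicate 1 and squares replicate 2, blue is Wt1_flfl and red Wt1_CKO. Rxrb lies above Rara, Rarb and Rxra, and Rarb reaches at most 0.515 RPKM.

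Within the receptor families 1 gene held most of the per-length level in every library. Rara held 71.2%, 79.0%, 71.0% and 77.1% of the summed RPKM of Rara, Rarb and Rarg. Rarb held between 2.88% and 6.24%. Rxra was not the main retinoid X receptor gene, with 18.6% to 25.3% of the summed RPKM of Rxra, Rxrb and Rxrg. Rxrb held 65.7% to 69.0%. The shares are of per-length levels of messenger RNA and depend on the exon lengths used. That of Rarb also depends on how its bases shared with Top2b were counted.

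The main comparison asked whether the 9 genes differed between Wt1_CKO and Wt1_flfl brain. None of the 7 tested genes passed edgeR's quasi-likelihood test, where 0.00628% of the 15933 genes (1 gene) lay under 0.05 after Benjamini-Hochberg adjustment. The edgeR adjusted p was 0.99996 for each of them. Their log2 fold changes, Wt1_CKO over Wt1_flfl, lay between -0.28 (Rarb) and 0.01 (Rxra), with a median of -0.15, beside 0.01 over all genes tested. The groups of 2 overlapped for all 7 genes, where 13.5% of genes tested had both Wt1_CKO libraries below both Wt1_flfl libraries and 13.4% had both above. None of the 7 had an unadjusted p under 0.05 with edgeR, DESeq2 or limma-voom. The spread between libraries of the same genotype was large beside the genotype difference. The 95% intervals from limma-voom below give the sizes of change allowed by a fit that leaves replicate number out. In such bulk samples a smaller number of cells that express a gene and less RNA per cell cannot be told apart.

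**Figure D2:**
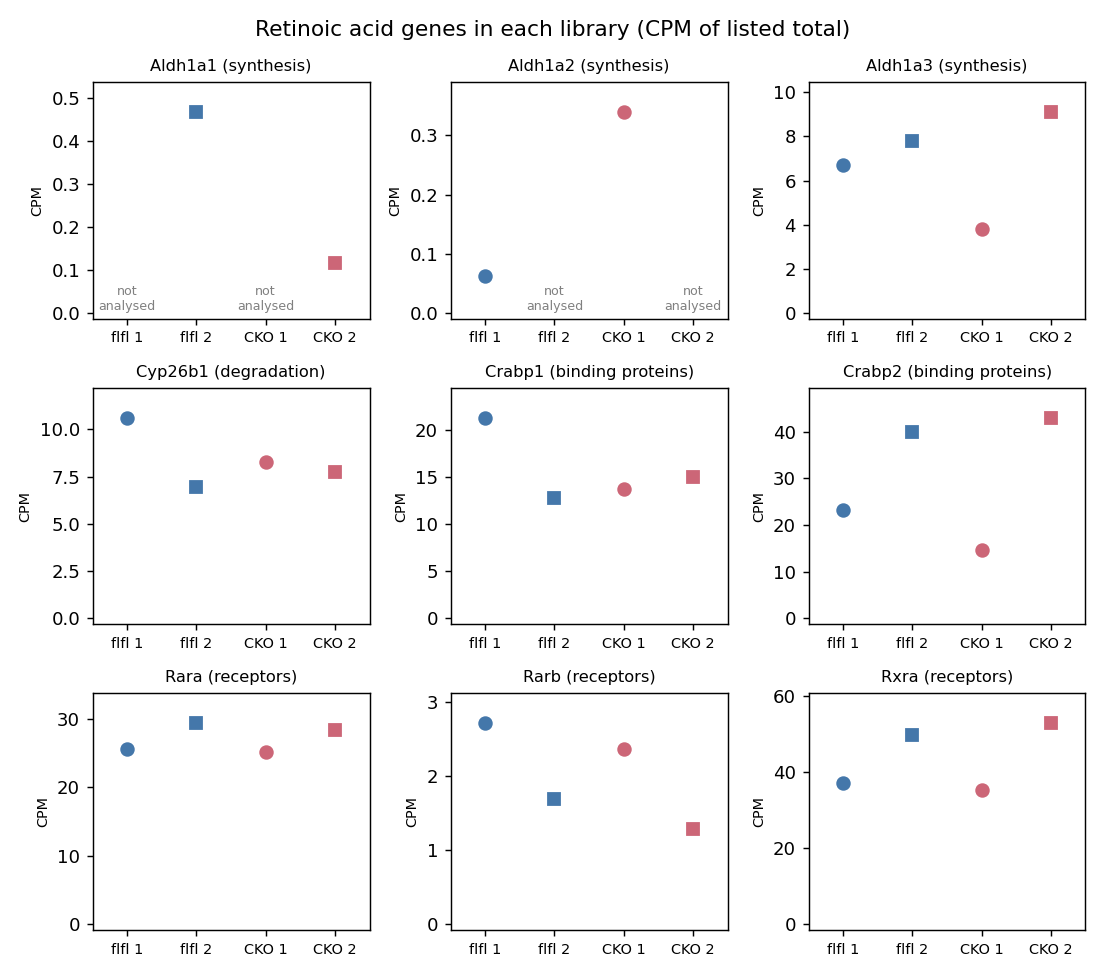
CPM of listed counts of each of the 9 genes in each library, with 1 panel per gene and each axis including 0. Circles are replicate 1 and squares replicate 2, blue is Wt1_flfl and red Wt1_CKO. Blue and red points overlap in range in the 7 panels with 4 libraries, and the replicate numbers separate in all of these but Crabp1.

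Among the synthesis enzymes, Aldh1a3 (ENSMUSG00000015134, chromosome 7, 66390890 to 66427517, positions on GRCm38 here and below) was the one detected at more than a few counts. It had 109 and 134 counts in the control libraries against 67 and 156 counts in the Wt1_CKO libraries, or 6.72 and 7.80 CPM against 3.78 and 9.09 CPM. The 2 Wt1_CKO libraries were thus the lowest and the highest of the 4. Control libraries averaged 7.26 ± 0.766 CPM and Wt1_CKO libraries 6.44 ± 3.75 CPM (SD, n = 2 each). On the log2 scale edgeR's difference was -0.19 ± 0.629, which is within this spread. The SE here and below is that of a difference of mean log2 CPM and not edgeR's own. The limma-voom estimate was -0.33, with a 95% interval of -1.30 to 0.64.

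Aldh1a2 (ENSMUSG00000013584, chromosome 9, 71215789 to 71296243), the meningeal enzyme, had 1 count in the control library of pair 1 and 6 counts in its Wt1_CKO library. The ratio of CPM was 5.50 with an exact 95% interval of 0.667 to 253 for counting error, so no difference was detectable at this depth. Aldh1a1 (ENSMUSG00000053279, chromosome 19, 20492715 to 20643462), found in dopaminergic neurons and the eye, had 8 counts in the control library of pair 2 and 2 counts in its Wt1_CKO library. Its ratio of 0.250 had an interval of 0.0259 to 1.25, which includes 1. Both marker lists of those cells held genes lower and genes higher in Wt1_CKO in pair 2. Of 6 dopaminergic midbrain markers listed there, 3 were lower and 3 higher in Wt1_CKO, with summed levels of 84.4 CPM in the control and 90.8 CPM in the Wt1_CKO library. The 3 lower were Th (223 counts against 169), Ddc (137 against 75) and Lmx1b (39 against 2). Of the 3 higher, Slc18a2, the highest of all, had 783 against 1038. Nr4a2 had 267 against 273 and En2 only 1 against 1. Of 10 eye and lens markers, 3 were lower and 7 higher in Wt1_CKO, with summed levels of 12.2 and 8.92 CPM. Six6 had 131 counts against 1 and Rax 23 against 0, while Dct, the highest over all libraries, had 14 against 94. Several of the 10 differed by few counts, namely Mitf (21 against 22), Vax2 and Tyrp1 (each 3 against 5) and Tbx5 (6 against 4). Th, Ddc, Lmx1b, En2, Rax, Mitf, Vax2, Tyrp1 and Tbx5 were named after their values were seen. The part of these cells in the Aldh1a1 counts was not tested.

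Cyp26b1 (ENSMUSG00000063415, chromosome 6, 84571414 to 84593908), which clears retinoic acid, had 172 and 119 counts in the control libraries against 146 and 133 counts in the Wt1_CKO libraries. These are 10.6 and 6.93 CPM against 8.25 and 7.75 CPM. The Wt1_CKO libraries lay between the 2 Wt1_flfl libraries. The difference on the log2 scale was -0.15 ± 0.310 (SE), and limma-voom's interval ran from -0.74 to 0.52.

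Crabp1 (ENSMUSG00000032291, chromosome 9, 54764748 to 54773110) is a carrier often linked to the turnover of retinoic acid. It had 346 and 220 counts in the control libraries against 244 and 258 counts in the Wt1_CKO libraries, or 21.3 and 12.8 CPM against 13.8 and 15.0 CPM. Wt1_flfl replicate 1 was the high library, and the other 3 lay within 12.8 to 15.0 CPM. It is also the library that stood apart in ribosomal RNA, whose part in this value was not tested. The means were 17.1 ± 6.02 CPM and 14.4 ± 0.887 CPM (SD, n = 2 each), a log2 difference of -0.26 ± 0.375 (SE). Its interval from limma-voom was -0.84 to 0.43.

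Crabp2 (ENSMUSG00000004885, chromosome 3, 87948666 to 87953376) delivers retinoic acid to its receptors in the nucleus. It varied most of the 7, with 377 and 687 counts in the control libraries against 261 and 737 counts in the Wt1_CKO libraries. In CPM these are 23.2 and 40.0 against 14.7 and 43.0, so that both replicate 2 libraries were above both replicate 1 libraries whatever the genotype. Such a separation by replicate number was common: 49.7% of all genes tested showed it, 24.7% with replicate 2 above and 25.04% with it below. Of the 7 genes, 6 showed it, with replicate 2 above for Aldh1a3, Crabp2, Rara and Rxra and below for Cyp26b1 and Rarb. The Crabp2 means were 31.6 ± 11.9 CPM and 28.8 ± 19.9 CPM (SD, n = 2 each). The log2 difference of -0.15 ± 0.860 (SE) is small beside that spread. The limma-voom interval from -1.47 to 0.86, around its own estimate of -0.31, spans a change of 0.360 to 1.81 times. This interval was the widest of the 7, in a fit that leaves replicate number out. With the replicate block, edgeR's log2 fold change for Crabp2 was -0.26, and it was not called either. Wt1_CKO replicate 1, the lowest in Crabp2 and in Aldh1a3, is the library that stood apart in Xist, and the part of this in both values was not tested.

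Marker lists of other cells moved in different ways beside Crabp2, which meningeal cells also express. The summed level of 16 of 16 meningeal and mesenchymal markers was 87.5 and 122 CPM in the controls against 91.9 and 81.3 CPM in the Wt1_CKO libraries, with Bgn and Cxcl12 as its highest members and Foxc2 at 0 counts in Wt1_CKO replicate 1. The summed level of 7 of 7 erythroid markers, led by Hbb-y and Hba-a1, was 733 and 1642 CPM in the controls against 681 and 1676 CPM in the Wt1_CKO libraries, the same order of libraries as Crabp2. The part of blood or meninges in the Crabp2 values was not tested.

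Striatal and ventral telencephalic markers, whose cells are a known site of Aldh1a3, had their lowest summed level in the library where Aldh1a3 was lowest. Their summed level, over 16 of 16 genes led by Dlx1 and Dlx2, was 1752 and 2224 CPM in the controls against 1446 and 1972 CPM in the Wt1_CKO libraries. Of these 16 genes, 13 were lower in Wt1_CKO in both pairs, as were 25.9% of all genes tested, while Aldh1a3 was not. Foxp1 and Foxp2, named after their values were seen, did not follow the sum and were lowest in Wt1_flfl replicate 2. The list of choroid plexus and roof plate, with 9 of 10 genes, had 24.7, 53.0, 66.9 and 29.4 CPM. Its highest genes differed in pattern. Ttr, a choroid plexus transcript, had 4, 213, 717 and 17 counts. Otx2, which is also a factor of the forebrain and midbrain, had 360, 537, 281 and 413 counts and was lower in Wt1_CKO in both pairs. The part of these cells in the Aldh1a3 values was not tested.

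Among the receptor genes, Rara was the steadiest of the 7 tested genes. It (ENSMUSG00000037992, chromosome 11, 98927818 to 98974942) had 416 and 504 counts in the control libraries against 446 and 488 counts in the Wt1_CKO libraries, or 25.6 and 29.4 CPM against 25.2 and 28.4 CPM. All 4 values lay within 25.2 to 29.4 CPM. The log2 difference was -0.05 ± 0.127 (SE). Its limma-voom interval of -0.42 to 0.31 was the narrowest of the 7 and spans 0.750 to 1.24 times.

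Rxra (ENSMUSG00000015846, chromosome 2, 27676440 to 27762957), the shared partner of many nuclear receptors, had 600 and 852 counts in the control libraries against 626 and 906 counts in the Wt1_CKO libraries. Its CPM of 37.0 and 49.6 against 35.4 and 52.8 separated the replicate numbers, as in 49.7% of all genes tested, and not the genotypes. The log2 difference was 0.01 ± 0.356 (SE), with a limma-voom interval of -0.56 to 0.54.

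Rarb (ENSMUSG00000017491, chromosome 14, 16430839 to 16819156), the receptor with the response element printed above, had 44 and 29 counts in the control libraries against 42 and 22 counts in the Wt1_CKO libraries. In CPM these are 2.71 and 1.69 against 2.37 and 1.28, with both replicate 2 libraries below both replicate 1 libraries. Rarb thus went the opposite way to Rxra and Crabp2 between the replicate numbers. The log2 difference was -0.28 ± 0.529 (SE), and limma-voom's interval of -1.37 to 0.78 leaves a wide range at so few counts. The part of the bases shared with Top2b in these counts was not tested. Cyp26a1, the other retinoid gene with the element, had 1 and 3 counts in the control libraries against 4 and 3 in the Wt1_CKO libraries and was too low to test. Of the 31 genes with the repeat, 7 were tested, with a median log2 fold change of 0.07 and none called.

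The pairs differed in direction. Of the 7 genes tested, 5 were lower in Wt1_CKO in pair 1 and higher in pair 2 (Aldh1a3, Cyp26b1, Crabp1, Crabp2 and Rxra), as were 22.7% of all genes tested. Rara and Rarb were lower in both pairs, as were 25.9% of all genes tested, and none of the 7 was higher in both. With 1 library per genotype in each pair, a difference between the pairs cannot be tested.

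**Figure D3:**
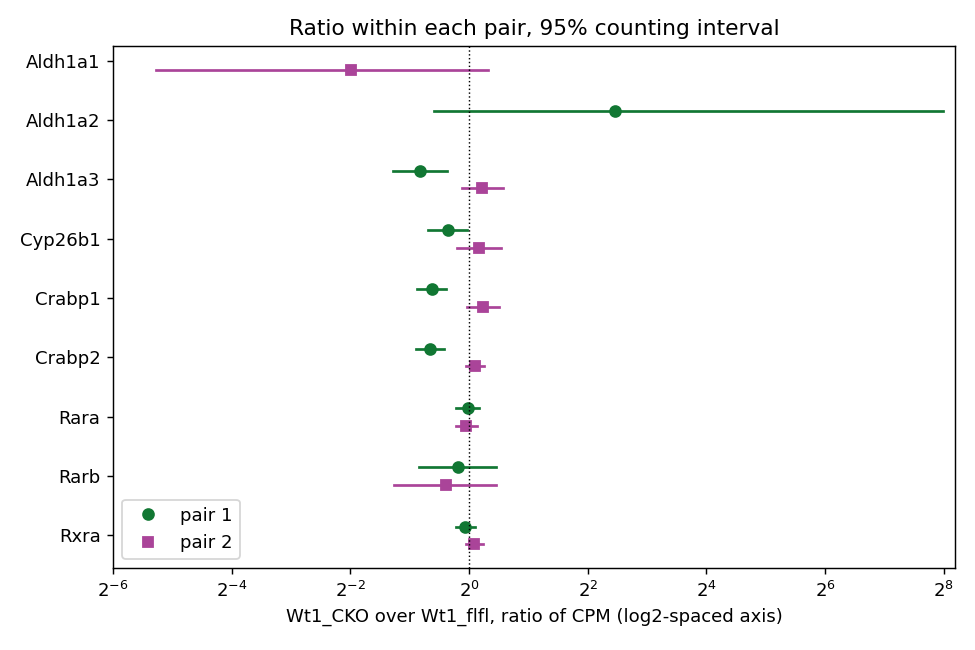
Ratio of CPM, Wt1_CKO over Wt1_flfl, for each gene within pair 1 (green circles) and pair 2 (purple squares), on an axis with log2 spacing. Lines are exact 95% intervals that cover counting error only. In pair 1 the intervals of Aldh1a3, Cyp26b1, Crabp1 and Crabp2 lie below 1, and in pair 2 all intervals include 1.

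In pair 1 the ratio for Aldh1a3 was 0.563 with an exact 95% counting interval of 0.409 to 0.770, and for Cyp26b1 0.778 (0.619 to 0.975). It was 0.646 (0.546 to 0.763) for Crabp1 and 0.634 (0.540 to 0.745) for Crabp2. These 4 of 8 genes had an interval below 1 in pair 1, beside 12.0% of 21047 genes listed there, and none had one above 1, beside 16.4%. In pair 2 the same ratios were 1.16, 1.12, 1.17 and 1.07, and 0 of 8 genes had an interval below or above 1, beside 12.1% and 14.0% of 20867 genes. The shares over all genes include genes with as few as 2 counts in a pair, so they are not matched in depth to the genes described here. The intervals compare 2 libraries and not the genotypes, and they cover counting error only. No molecular identifiers are described, so counts may include copies of the same molecule, and the intervals may then be too narrow.

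The authors' deposited tables mark none of the 9 genes as significant in either pair, beside 3.20% of genes in pair 1 and 3.19% in pair 2. In the authors' deposited table for pair 1 the adjusted p was under 0.05 for 3 of 8 genes, Crabp2 (2.02e-07), Crabp1 (1.91e-06) and Aldh1a3 (0.00109), beside 23.3% of listed genes. In the authors' deposited table for pair 2 it was under 0.05 for 0 of 8, beside 19.2% of listed genes. These are comparisons of 1 library with 1 library.

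For each of the 7 genes the direction turned when some library was left out. Without Wt1_flfl replicate 1 the log2 fold change was 0.16 for Crabp1, 0.20 for Cyp26b1 and 0.11 for Rarb, each turned from lower to higher. In the same fit it was -0.18 for Rxra, turned from higher to lower. It kept its direction at -0.48 for Crabp2, -0.29 for Aldh1a3 and -0.14 for Rara. Without Wt1_CKO replicate 1 it was 0.31 for Aldh1a3, 0.43 for Crabp2 and 0.03 for Rara, each turned. It kept its direction at 0.27 for Rxra, -0.20 for Crabp1, -0.19 for Cyp26b1 and -0.79 for Rarb. Without Wt1_flfl replicate 2 it was 0.29 for Crabp2 and 0.04376 for Rara, both turned, and -0.59 for Crabp1 and -0.43 for Cyp26b1, not turned. Without Wt1_CKO replicate 2 it was -0.31 for Rxra and 0.09 for Rarb, both turned, and -1.12 for Crabp2 and -0.95 for Aldh1a3, not turned. None of the 7 passed edgeR's test in any of these 4 fits, whose adjusted p-values lay between 0.9994 and 0.9999.

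Other genes of the pathway were taken from lists, and none of them passed edgeR's test either. Of 28 further genes of retinoid metabolism and transport, 13 were tested, with 0 called in each direction and a median log2 fold change of 0.06. The 4 with the smallest p were Rdh13, Rdh14, Rdh11 and Dhrs4, relatives of the retinol dehydrogenases. Rdh13 had 464 and 503 counts in the control libraries against 579 and 572 in the Wt1_CKO libraries, with a log2 fold change of 0.17. Rdh11 had 512 and 548 against 654 and 574 counts, with a fold change of 0.13 on that scale. Rdh14 had 261 and 272 against 259 and 233 counts (-0.19 on the log2 scale), and Dhrs4 had 621 and 478 against 701 and 611 (0.17). After TMM scaling, 3 of these 13 genes had both Wt1_CKO libraries above both Wt1_flfl libraries, namely Rdh13, Rdh11 and Rdh10, the main retinol dehydrogenase of the embryo, which had 166 and 161 against 199 and 188 counts. In 1 gene, Rdh14, both lay below. Over all genes tested 26.9% did not overlap in either direction. Rdh10 was named after its values were seen.

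Of the 3 other retinoid receptor genes, 3 were tested and 0 called. Rarg had 129 and 107 counts in the control libraries against 144 and 124 in the Wt1_CKO libraries, Rxrg 174 and 141 against 176 and 136, and Rxrb 1512 and 1730 against 1688 and 1714. Their log2 fold changes were 0.10, -0.10 and -0.01. Rxrb was therefore, like Rara, close in all 4 libraries, at 23.5 to 25.4 RPKM.

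Of 11 other nuclear receptors that pair with RXR, 7 were tested and 0 called, with a median of -0.06. Nr1h3, a liver X receptor gene, had 29 and 19 counts in the control libraries against 14 and 13 in the Wt1_CKO libraries. Its groups did not overlap, and its log2 fold change of -0.91 did not pass (edgeR adjusted p = 0.99996). The orphan receptor gene Nr4a2 had 246 and 267 against 346 and 273 counts, the thyroid hormone receptor gene Thrb 28 and 15 against 23 and 12, and Nr4a1, an immediate early gene, 154 and 178 against 121 and 188. After TMM scaling the groups also did not overlap for Nr4a2, which was higher in Wt1_CKO. The same held for Ppard, which was lower, with a log2 fold change of -0.05, and was named after its values were seen. With Nr1h3 these were 42.9% of the 7, beside 26.9% of all genes tested.

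Of 13 coregulators of these receptors, 13 were tested and 0 called, with log2 fold changes from -0.17 to 0.19. Med1, a Mediator subunit that contacts nuclear receptors, had 1242 and 1371 counts in the control libraries against 1624 and 1531 in the Wt1_CKO libraries. The coactivator gene Ncoa2 had 1083 and 1173 against 1351 and 1226 counts, and in both genes the groups did not overlap. Such genes were 15.4% of the 13, beside 26.9% of all genes tested. The arginine methyltransferase gene Carm1 had 1997 and 2532 against 2096 and 2151 counts, and the corepressor gene Ncor1 had 2821 and 3452 against 3829 and 3332.

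Of 27 known target genes of retinoic acid, 17 were tested and 0 called, with a median log2 fold change of -0.00. The homeobox gene Gbx2 had 163 and 100 counts in the control libraries against 64 and 101 in the Wt1_CKO libraries, a log2 fold change of -1.47 within pair 1 and of 0.01 within pair 2. Nr2f2, an orphan receptor gene of the caudal and ventral telencephalon, had 2358 and 4170 against 2081 and 2787 counts and a log2 fold change of -0.49. Its paralogue Nr2f1 had 4631 and 4403 against 4385 and 4458 counts. The zinc finger gene Zfp503, a striatal factor, had 926 and 1124 against 678 and 1095 counts. The groups overlapped for these 4 genes. They did not overlap for Tshz1 (-0.06 on the log2 scale) and Ret (-0.17), both lower in Wt1_CKO and named after their values were seen. Such genes were 11.8% of the 17, beside 26.9% of all genes tested. The Hox genes on this list were not analysed here.

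**Figure D4:**
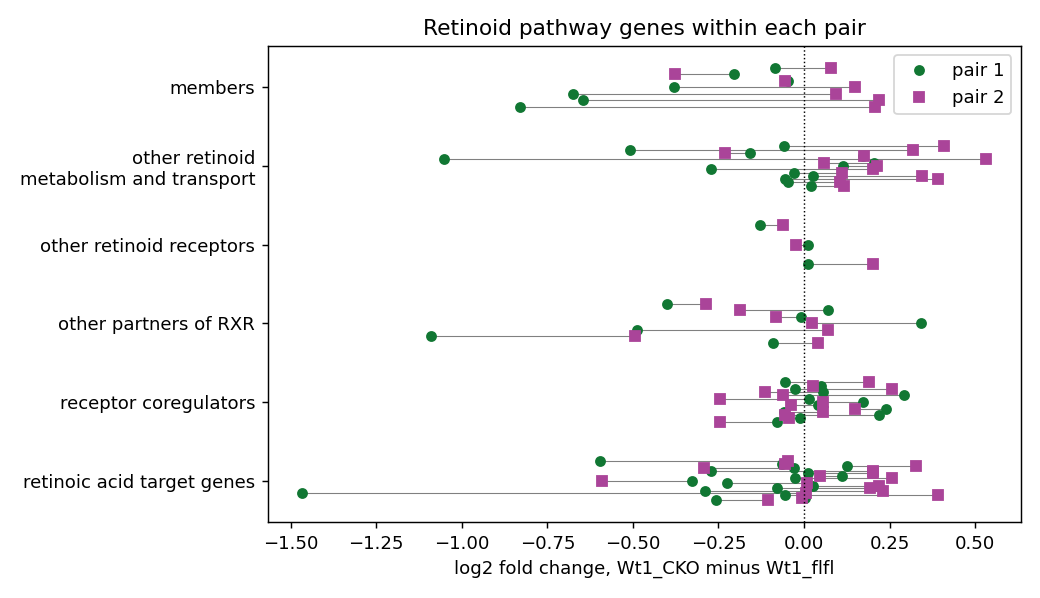
Log2 fold change, Wt1_CKO minus Wt1_flfl, of every tested gene of the 6 lists, in pair 1 (green circles) and pair 2 (purple squares), with a line joining the 2 values of a gene. Points on opposite sides of 0 show genes whose direction differed between pairs, as for 5 of the 7 genes in the top row.

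The genes most like the 3 most variable of the 9 were found by the distance between centred log2 CPM profiles over the 4 libraries, among 14538 genes whose mean reached 1 CPM. For Crabp2 they were the pseudogenes Gm8292 and Gm11942 and the noncoding transcript Gm10421, at distances of 0.238 to 0.257. Gm8292 had 67, 141, 58 and 155 counts in the library order used above. For Aldh1a3 they were Ell2, a transcription elongation factor gene, Metrn, which encodes the secreted protein meteorin, and the formin gene Fhdc1, at 0.0769 to 0.104. Metrn had 50, 68, 32 and 75 counts. For Rarb they were the adrenergic receptor gene Adrb1, Luzp2 and 4930590J08Rik, at 0.0648 to 0.104, and Luzp2 had 200, 135, 181 and 98 counts. With 4 libraries and so many genes, near profiles are a description only.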

How the data were processed

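RNA-seq counts of 4 libraries were analysed, 2 per genotype. The submitters' processing notes name HTSeq 0.6.0, TopHat2 2.0.12, Bowtie2 2.2.3 and, as a build, mm9, while 92.1% of the gene IDs found in GENCODE vM21 have the GRCm38 positions given there. Per the file headers the authors deposited raw counts per gene, CPM values, a log2 fold change and p-values for 1 library against 1 library. For counts above 0 the deposited CPM values were the count over a library total, and they were not used further. The authors' adjusted p can fall below their p, so it is not a Benjamini-Hochberg value, and how it was made is not given in the sources used here.

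Genes listed in both tables (19500) entered edgeR 4.0.16, run in R 4.3.3 (filterByExpr with a minimum count of 10, TMM, a quasi-likelihood F test with genotype as the only term, Benjamini-Hochberg adjustment over 15933 genes, threshold 0.05). Each SE was computed from both groups' SDs of log2 CPM (prior count 2), and with n = 2 it is imprecise. It belongs to a difference of mean log2 CPM, although it is printed beside edgeR's fold change. Intervals of log2 fold changes are from limma-voom (limma 3.58.1) and centre on its own estimates, while fold changes are from edgeR unless limma-voom is named. Within-pair values subtract log2 CPM (same prior count, TMM). CPM and RPKM values use listed totals without TMM. On counts simulated from these libraries for this comparison, 15661 genes were tested. The test called 67.0% of the 100 genes given a log2 fold of 1, and 96.0% of the 100 given 2. The simulated spread was the typical one at each gene's count level, with no difference between replicate numbers. Genes with few counts were given no change. These shares need not hold for genes that varied more between libraries, such as Crabp2 and Aldh1a3.

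The genes and lists were chosen with earlier results of these data known. The named genes were the 9, the 4 of each other pathway list with the smallest p, the 3 nearest in pattern to each of the 3 most variable, and the 2 highest of each marker list. The remaining marker lists had as their highest genes Slc18a2 and Nr4a2 (dopaminergic midbrain), Dct and Six6 (eye, Six6 in pair 2 only), Epcam and Cdh1 (epithelium) and Kdr and Pecam1 (endothelium), with summed levels, over the genes each pair's table lists, of 71.8 to 90.8, 8.92 to 18.7, 2.90 to 5.88 and 101 to 120 CPM. The hindbrain list was not analysed here. The alternatives tried were DESeq2 1.42.0, its size factors alone, limma-voom, no or a stricter low-count filter, omission of single libraries, a replicate block, and a fit in which a gene missing from 1 table counts as 0 there.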

Additional observations from a re-analysis of the deposited data

How the results depend on the processing

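None of the 7 tested genes was called under any alternative (6 of them tested under the stricter filter): 0 were called with the replicate block, without each library in turn, with DESeq2, limma-voom, DESeq2 size factors, no or a stricter low-count filter, and with missing genes as 0. Over all genes the count of 1 became 42 with the replicate block and 5 with DESeq2, and ranged from 3 to 73 when 1 library was left out (omitting Wt1_flfl replicate 1 gave 73, its replicate 2 gave 29, Wt1_CKO replicate 1 gave 3 and its replicate 2 gave 7); the cause was not tested. No label says what a shared replicate number stands for. The deviations of same-numbered samples from their group means had a correlation of 0.28 across 15933 genes, which with 2 pairs does not settle the pairing. Of 76 log2 fold changes of the 7 genes under alternatives, 63 kept their direction and 13 turned. Rxra, at 0.01, became -0.00128 with the replicate block and -0.00874 with limma-voom. The smallest adjusted p of the 7 genes under any alternative was 0.784 (Crabp2, replicate block). Leaving out 1 library turned Rxra (-0.31 to 0.27), Aldh1a3 (-0.95 to 0.31), Crabp1 (-0.59 to 0.16), Crabp2 (-1.12 to 0.43), Cyp26b1 (-0.43 to 0.20), Rara (-0.14 to 0.04) and Rarb (-0.79 to 0.11). The turned values were 0.20 for Cyp26b1, 0.16 for Crabp1, 0.11 for Rarb, -0.18 for Rxra without Wt1_flfl replicate 1, and 0.29 for Crabp2, 0.0438 for Rara without Wt1_flfl replicate 2, and 0.31 for Aldh1a3, 0.43 for Crabp2, 0.03 for Rara without Wt1_CKO replicate 1, and 0.09 for Rarb, -0.31 for Rxra without Wt1_CKO replicate 2. The scaling moved the median of all genes by under 0.1 on the log2 scale. Depth limits Aldh1a1, Aldh1a2 and Rarb, which held at most 8, 6 and 44 counts per library.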

Other observations

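The library order with Wt1_CKO replicate 1 lowest, then Wt1_flfl replicate 1, Wt1_flfl replicate 2 and Wt1_CKO replicate 2 was noticed in the data. It was picked because some of the 7 tested genes showed it, so its share among them is not a test. The order was shared by 3 of the 7 tested genes, Aldh1a3, Crabp2 and Rxra, where 846 of 15933 genes tested (5.31%) had it. Among 49 other tested pathway genes 4 had this order, Dgat1, Nr4a1, Stra6 and Meis1. Stra6, the receptor through which cells take up retinol, had 205 and 284 counts in the control libraries against 159 and 357 in the Wt1_CKO libraries, or 12.6 and 16.5 CPM against 8.98 and 20.8 CPM. Meis1, a homeobox gene that retinoic acid is known to raise, had 38.0 and 45.9 CPM in Wt1_flfl and 31.6 and 54.3 CPM in Wt1_CKO. These genes were named after their values were seen, and none passed edgeR's test. Of the tested markers of other cells, 4 of 7 erythroid genes (Hbb-y, Hbb-bh1, Hba-x and Hba-a2) had this order. So did 1 of 16 striatal and ventral telencephalic genes (Gad1) and 1 of 12 neural genes (Hes5), and none of the tested meningeal, choroid plexus, dopaminergic, eye, epithelial or endothelial markers did. The part of blood in the order was not tested.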
